A study of Ramazzottius varieornatus with 27 samples.

Results

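A set of 9 genes of the tardigrade Ramazzottius varieornatus lay near 0 in non-irradiated animals and was present from 12 h to 21 h after 500 Gy of 60Co gamma ray. The members were chosen by measured values. A gene needed a single transcript row, a mean of the 3 control libraries under 1, a mean over the 12 libraries of 12, 15, 18 and 21 h of at least 3, and at least 9 of these 12 libraries above the highest control. Values are TMM-normalized TPM, in which reads are divided by transcript length, set relative to the library's total and multiplied by a scaling factor for each library (trimmed mean of M-values). The deposited file lists 13920 genes, of which 13369 had a single transcript row, and 9 of these met the rule. Low levels before irradiation and higher ones at 12 h to 21 h are therefore what the choice fixed, and are given here as a description with no test.

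The study followed whole animals over time after a single dose. RNA of 30 animals was sequenced in each of 27 libraries, with 3 technical replicates of the non-irradiated controls (Ctrl) and 3 at each of 4, 6, 9, 12, 15, 18, 21 and 24 h after 500 Gy. The animals were reared on agar with Chlorella as food, and the irradiated ones were exposed in a pair of tubes of water, spread on plates, kept at 22 °C and drawn from there at each time. The strain, the age of the animals and the sampling time of the controls are not given in the sources used here, so time on the plate and time after irradiation cannot be told apart. As the samples are technical replicates, p-values measure only the spread between these samples. In RNA of whole animals, more cells of a type and more RNA per cell cannot be told apart.

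Gamma ray breaks DNA directly and through the reactive oxygen species it makes in water. Animals respond by transcribing genes for DNA repair, for checkpoints of the cell cycle and for enzymes that remove oxidants, and tardigrades are known for surviving doses that kill most animals. For genes with almost no RNA before exposure, RNA after exposure is read against almost no background. The same low level makes them the genes most exposed to counting error. The files used here give a gene number (g5086 and the like) and no gene name. None of the 13920 genes of the series matched an entry of the gene table of the R. varieornatus genome assembly Rvar_4.0. As no gene matched, the lack of a match for the members (0 of 9) says nothing about them. No function is therefore given for any member, and the lists of repair, antioxidant and tardigrade protection genes could not be matched.

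The 9 members held 8 distinct measurements. The rows of g5582 and g13479 were identical in all 27 libraries, as were 44 transcript rows of the table with some other row, and this pair is counted below as 2 genes with 1 measurement. The numbers of g5084 and g5086 differ by 2, and no other gap between members was under 496. The other genes numbered beside them did not all share their pattern. The gene g5085, numbered between them, had group means of 0 to 0.709, and g5088 was at 61.6 to 85.7 in every group. The gene g5082, chosen for mention after its values were seen, was listed at 0 in the 3 controls, had a mean of 3.34 over 12 h to 21 h and missed the rule with 5 of 12 libraries above the controls. Whether consecutive numbers stand for neighbours on the genome is not given in the sources used here.

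The limits of the rule did not set the 9 members apart from all other genes. A further 54 genes failed only the limit on the later mean, and 2711 failed only the limit on the controls. Of the genes with 1 transcript row, 2677 had a control mean under 1, and 14 of these reached a mean of 3 at 12 h to 21 h. The other 5 (g37, g5082, g2940, g6485 and g181) exceeded the controls in 4 to 8 of the 12 libraries. Just inside the limit on the controls were g2636, with a control mean of 0.866, and g2074 with 0.614. Just outside it were g1673 with 1.08 and g5506 with 1.20. Just inside the limit on the later mean were g2636 with 3.19 and the pair g5582 and g13479 with 3.21, and just outside it g5811 with 2.72 and g8633 with 2.52. Just inside the limit on the number of libraries were g5084 and g2074, with 9 of 12 each, and just outside it g181 with 8 and g6485 with 7. The choice moved with the controls. All 9 members were listed at 0 in control replicate 3, and without control replicate 1 or 2 the rule took 14 or 21 genes, the same 9 among them both times.

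Library preparation and depth changed along with time. PCR ran for 15 cycles in the 4 h libraries and in replicates 1 and 2 of 6 h, for 21 cycles from 6 h replicate 3 through 21 h and for 23 cycles at 24 h, and no number is given for the controls. The depth can be read from the steps between low values, since 1 read adds the same amount to a given transcript each time. Over the steps of 988 low transcripts, 1 read was worth 1 (the reference) to 1.53 at 4 h, 1.40 to 3.96 in the controls, 1.40 to 7.21 in the 9 h libraries and 8.76 to 15.4 in those of 24 h. A given level thus stood for the fewest reads at 24 h. Among the controls 1 read was worth most in replicate 3 (3.96), where all 9 members were listed at 0. Libraries also differed in how many transcripts they held. In 9 h replicate 1 and 18 h replicate 2 the number of transcripts above 0 was 9575 and 10570, the fewest of the 27, and 6 and 4 of the 8 distinct members were listed at 0 there. In 18 h replicate 3 4 of 8 were listed at 0. By the paper, 9 h replicate 1 showed signs of adapter dimers, and the pool was size selected for that reason. In the paper's mapping summary, 9 h replicate 1 also had the lowest share of reads mapped to the genome. The part of depth, cycles and these libraries in the levels below was not tested.

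**Figure D1:**
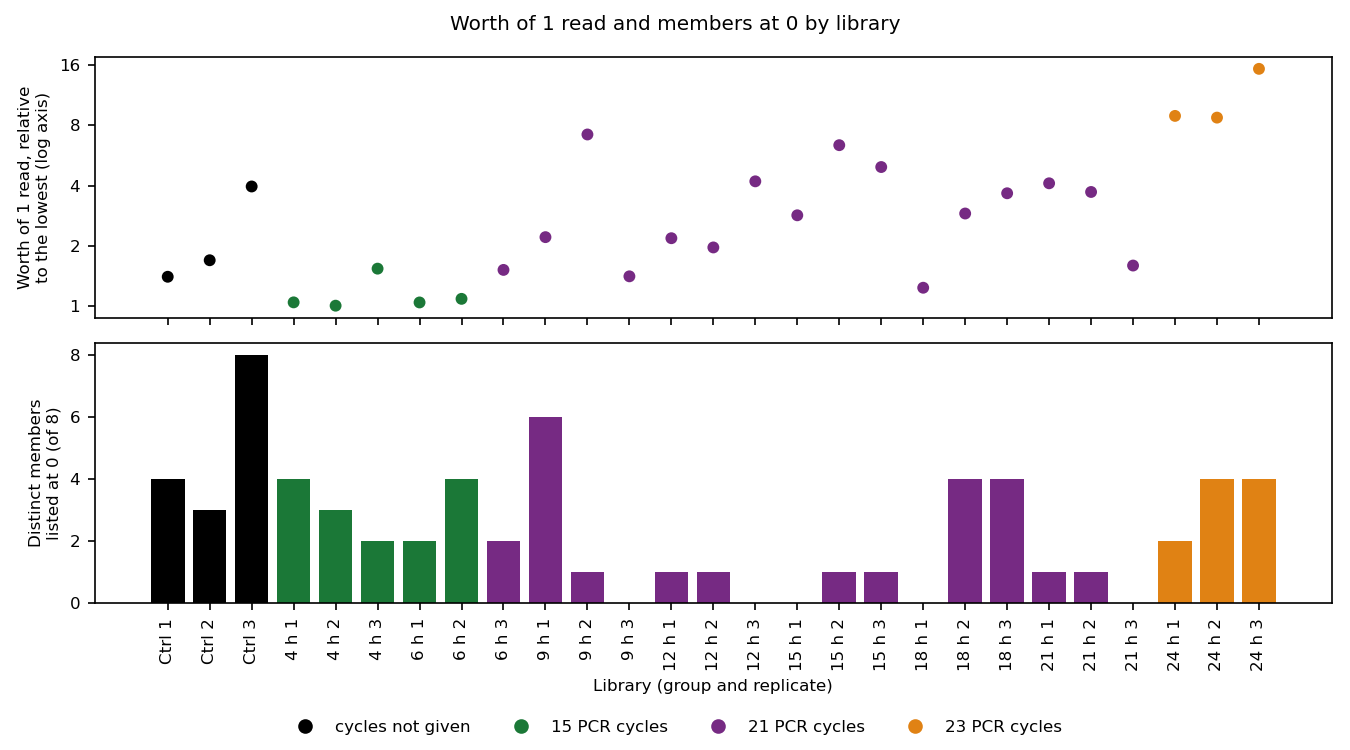
Upper panel, worth of 1 read in each of the 27 libraries relative to the lowest one (log axis), from 1 at 4 h to 15.4 at 24 h. Lower panel, number of the 8 distinct members listed at 0 in the same library, with 8 in control replicate 3, 6 in 9 h replicate 1 and 0 to 4 elsewhere. Colours give the number of PCR cycles.

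The strongest member at 12 h to 21 h was g5086. It was listed at 0 in the 3 controls, in 4 h replicates 1 and 2 and in the 3 libraries of 6 h, and was at 9.31 in 4 h replicate 3. The 9 h libraries read 29.1, 0 and 46.0, in the order of replicates 1 to 3 as in all triplets below. By the definition used here, a gene was on at a time when the group mean was at least 1 and at least 2 of 3 libraries exceeded the highest control, which puts g5086 on from 9 h. Over the 12 libraries of 12 h to 21 h the lowest value was 0, the median 41.2 and the highest 121. All 3 libraries of 12 h were high (47.4, 67.6 and 107), whereas at 18 h it was at 18.4 in replicate 1 and at 0 in replicates 2 and 3. At 24 h it was at 44.9, 160 and 0, so the highest of the 27 values and a value of 0 stood side by side in one group. Its mean at 24 h was 1.57 times the mean of 12 h to 21 h.

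The gene g5084 was listed at 0 in every control and in every library of 4 h and 6 h, that is in 9 of 9. Its 9 h values were 0, 5.98 and 4.90. At 12 h its values were 21.6, 18.7 and 33.3, each above those of 9 h, and at 15 h 29.6, 11.7 and 12.8. From 18 h on the replicates fell apart, with 16.4, 61.3 and 0 at 18 h, 0, 0 and 25.4 at 21 h and 0, 45.2 and 0 at 24 h. The mean at 24 h was 0.783 of the mean of 12 h to 21 h and came from replicate 2 alone. Over the 12 libraries of 12 h to 21 h the lowest value was 0, the median 17.6 and the highest 61.3, and without any 1 of 9 of these libraries g5084 no longer met the rule, as only 8 of 11 were then above the controls.

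The gene g4149 was the only member on from 6 h by the definition used here. It was listed at 0 in the controls and at 4 h, and its 6 h values were 6.69, 0 and 19.0, the last of them with 21 cycles and the others with 15. Without either replicate 1 or replicate 3 of 6 h, it counted as on from 9 h. At 9 h its values were 0, 2.97 and 7.82 and at 12 h 0, 0 and 17.7, so it was listed at 0 in 3 of these 6 libraries. It was present in all 9 libraries of 15 h, 18 h and 21 h, at 8.87 to 69.1. The highest value was in 18 h replicate 2. At 24 h it was at 11.7 in replicate 1 and at 0 in the other 2, a mean of 0.204 of that of 12 h to 21 h, the lowest ratio of the 9 members.

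Of the other 6 members, all but g2636 were on at 4 h already. The gene g582 had the lowest coefficient of variation over 12 h to 21 h, 0.548. Its controls were at 0.969, 0.449 and 0, its 4 h libraries at 1.73, 5.12 and 2.42 and its 6 h libraries at 1.63, 2.17 and 7.27. All 6 libraries of 4 h and 6 h lay above the highest control. The 9 h values were 0, 14.5 and 9.03, and over 12 h to 21 h the lowest value was 0 (18 h replicate 2), the median 4.88 and the highest 11.6. At 24 h the 3 libraries were alike at 5.47, 5.34 and 4.02, and their mean was 0.903 of that of 12 h to 21 h. This was the only member with all 3 libraries of 24 h above the highest control.

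The values of g582 came in whole steps of 1 read, which gives the reads behind them. Of 16 values under 25 steps 93.8% were whole within 0.03 of a step plus 0.6% of the value. The controls held 8, 3 and 0 reads of g582 and the 24 h libraries 7, 7 and 3. A single read was worth 0.122 in control replicate 1 and 0.766 in 24 h replicate 2. The level at 24 h thus rested on 17 reads in all. These PCR reads carry no molecular identifiers and are not independent molecules.

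The gene g8665 was detected in a single control and then at every time. Its controls were at 0, 0.427 and 0, and its 4 h libraries at 2.26, 0.760 and 0.382, of which the last lay below that control. The 6 h libraries were close to each other at 2.79, 2.72 and 3.30, with no split by cycles. At 9 h it was at 0, 6.68 and 6.71. It was above the highest control in all 12 libraries of 12 h to 21 h, with a lowest value of 0.691, a median of 3.10 and a highest of 15.8 (18 h replicate 2, without which it no longer met the rule). At 24 h it was at 3.01, 0 and 0, a ratio of 0.264 to the mean of 12 h to 21 h. The 24 h value of replicate 1 stood for 4 reads, and 1 read was worth 0.736 and 1.29 in the 2 libraries at 0, so 0 reads there allow levels of up to 2.21 in replicate 2 and 3.88 in replicate 3 (3 reads, counting error only).

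The gene g2074 had the fewest reads of the members with whole steps. Its controls were at 0.399, 1.44 and 0, which were 1, 3 and 0 reads. In control replicate 3, 0 reads allow a level of up to 3.38 (3 reads, counting error only). That is above the gene's mean of 3.27 over 12 h to 21 h. At 4 h it was at 0, 5.69 and 2.18 and at 6 h at 5.32, 0 and 3.02, so 1 library of each group was at 0 while the other 2 exceeded every control. At 9 h it was at 0, 4.12 and 5.98. Over 12 h to 21 h the lowest value was 0, the median 2.98 and the highest 8.19, and these 12 libraries held 52 reads in all. Like g5084, it no longer met the rule without any 1 of 9 of them. At 24 h it was at 0, 0 and 13.1. The value of 13.1, the highest of the 27, was 3 reads, since 1 read was worth 4.37 there.

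The pair g5582 and g13479 had its highest group mean at 4 h. Its controls were at 0.787, 0.321 and 0 and its 4 h libraries at 5.62, 15.1 and 3.77. At 6 h it was at 0.920, 15.99 and 1.82, so the 6 h mean came mostly from replicate 2, and the other 2 libraries lay below the median of 12 h to 21 h (3.34). All 6 libraries exceeded the highest control. The means of 4, 6 and 9 h were 8.17 ± 6.09, 6.24 ± 8.46 and 3.28 ± 2.26 (SD, n = 3), against 3.21 over 12 h to 21 h. At 24 h it was at 0.569, 4.98 and 7.76, and the first of these, a single step of the values, lay below the highest control. Without 15 h replicate 3 the pair no longer met the rule. A step is here 1 read or, where RSEM divided a read between both rows, a part of one.

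The gene g2636 was the least separate from the controls. They were at 1.37, 1.23 and 0, and of the 6 libraries of 4 h and 6 h only 4 h replicate 3 (1.83) and 6 h replicate 3 (3.40, 21 cycles) exceeded them. At 9 h it was at 0, 2.15 and 3.92, which puts it on from 9 h. From 9 h on its values were closest together at 21 h, at 4.06, 3.75 and 4.81. At 18 h it was at 4.05, 0 and 0. At 24 h it was at 4.34, 0 and 11.2, with a mean 1.62 times that of 12 h to 21 h, the highest ratio of the 9. With control replicate 3, the one at 0, left out, its control mean passed 1 and it no longer met the rule, nor did it without 15 h replicate 1.

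**Figure D2:**
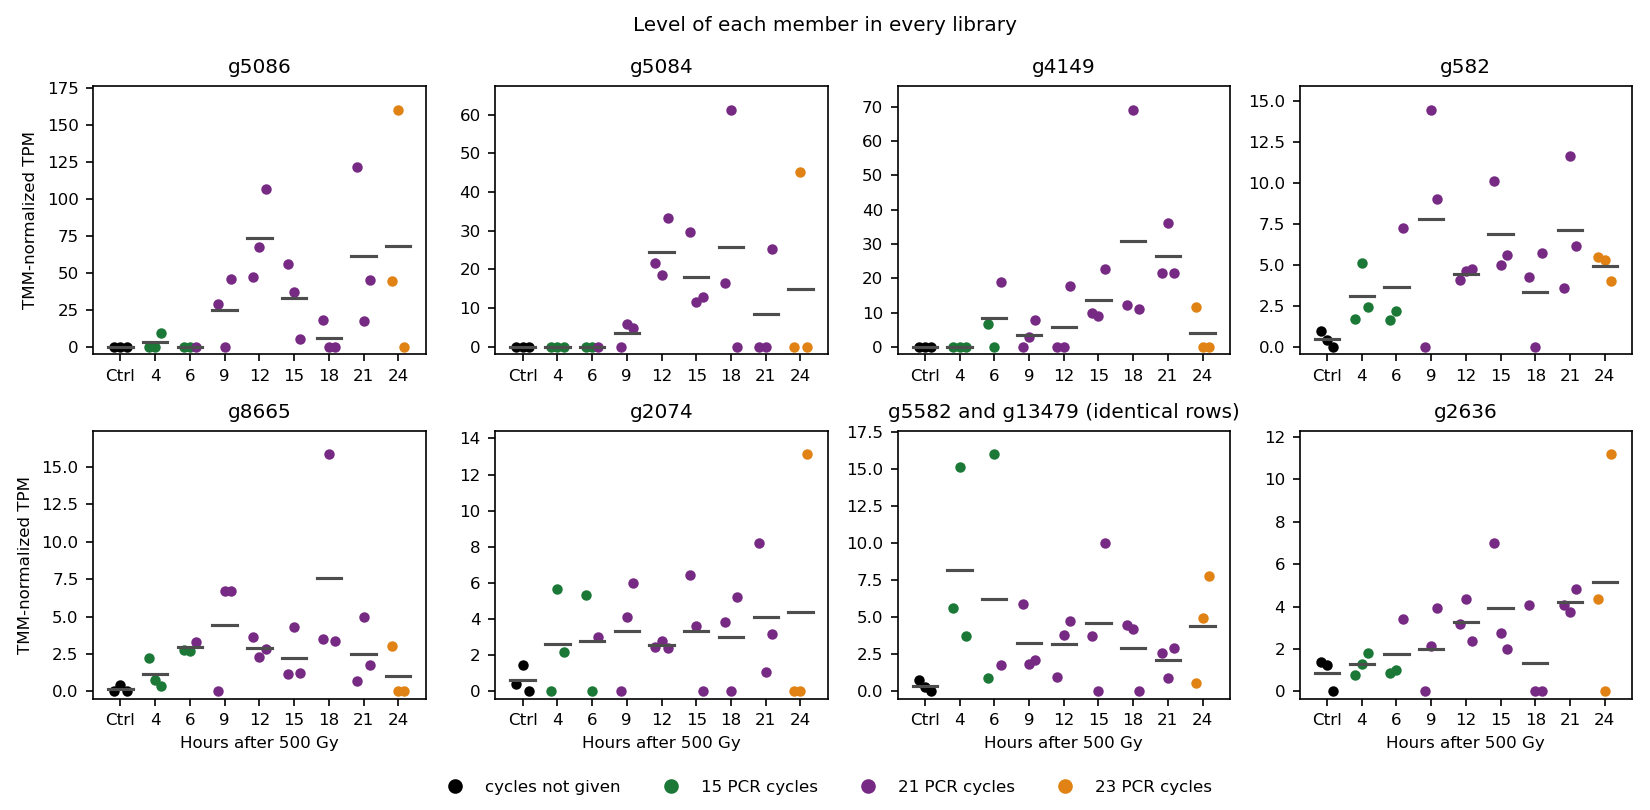
Level of each member (TMM-normalized TPM, linear axes that differ between panels) in every library of the controls and of 4 h to 24 h. Points are libraries, coloured by PCR cycles, and bars are means of 3. The genes g5086, g5084 and g4149 have no control above 0, and values of 0 beside high ones recur in the same group, as at 24 h.

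Taking the 9 members by the time they came on, 5 were on at 4 h (g582, g8665, g2074, g5582 and g13479), 1 at 6 h (g4149) and 3 at 9 h (g5086, g5084 and g2636). The count at 4 h depended on the libraries asked for. When all 3 libraries had to exceed the highest control, 3 members were on at 4 h (g582, g5582 and g13479), 1 at 6 h (g8665) and 5 at 12 h or later. Without 4 h replicate 2, again 3 were on at 4 h. The count at 9 h also turned on single libraries, since both of the libraries left then had to exceed the controls. Without 9 h replicate 3 none of g5086, g5084 and g2636 was on at 9 h and all 3 moved to 12 h or later. Without 9 h replicate 2 only g5086 stayed on at 9 h, and without 9 h replicate 1 only g5086 moved to 12 h or later. By the time of reaching 50% of the mean of 12 h to 21 h, 4 members did so by 4 h, a further 2 by 6 h, g5086 by 9 h, and g5084 and g4149 at 12 h or later. By the definition used here, late onset was thus not shared by the set, as 5 of 9 members were on at the earliest time sampled. The identical pair counts as 2 of these 5. Being on was read against control libraries that the rule required to be low, so these times are a description with no test. The share of other genes with low controls that were on at 4 h was not computed.

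At 24 h, 7 of 9 members had a mean of at least 50% of that of 12 h to 21 h and 2 (g4149 and g8665) had fallen below it, none to a mean under 1. The mean of 12 h to 21 h was used by the rule, so these ratios are a description with no test. The share of other transcripts that kept 50% was not computed. The means hid a split between libraries. Of 27 member values at 24 h 10 were 0, against 16 of 108 at 12 h to 21 h, with the identical pair counted as 2 genes. The rule limited the zeros at 12 h to 21 h, since at least 9 of 12 libraries had to exceed the controls. It set no such limit at 24 h, so the 2 shares cannot be compared. The share of zeros among other low transcripts was not computed. For g5084, g4149, g8665 and g2074 the mean came from 1 library. The 24 h libraries had 23 cycles and the highest worth of a read, so time, cycles and depth cannot be told apart there.

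The times of 4, 6, 9 and 24 h played no part in the choice of members, so changes between their means could be tested. The spread in these tests was pooled over all 27 libraries, however, and those include the libraries that the choice used. The intervals and p-values are therefore not wholly free of the choice. The test was limma on log2(value + 1) over 12820 transcripts, all 9 members among them, where a call needed group means that differed by over 2 times as well as p under 0.05 after Benjamini-Hochberg adjustment. All members passed the filter (3 libraries or more at 1 or above), which their high late values ensured. No member was called in any of the 5 comparisons. Between 4 h and 6 h, 0 of 9 members and 0% of all transcripts were called higher at 6 h (1 member and 562 transcripts higher at an unadjusted p under 0.05). At 9 h against 6 h it was 0 of 9, against 0.741% of all transcripts (1 member and 1140 transcripts at an unadjusted p under 0.05). At 9 h against 4 h it was 0 of 9 against 2.18%, and at 24 h against 4 h 0 of 9 against 2.39% (0 members at an unadjusted p under 0.05 in both, with 1866 and 1896 transcripts). From 9 h to 24 h 0 of 9 were called higher, against 0.179%, and 0 of 9 lower, against 0.460% (0 members at an unadjusted p under 0.05, with 1014 transcripts higher and 954 lower). The median log2 change of the 9 members at 9 h against 4 h was 0.48, against -0.14 over all transcripts tested. The other comparisons gave medians of 0.09 against 0.02 (6 h against 4 h), -0.01 against -0.11 (9 h against 6 h), 0.62 against -0.11 (24 h against 4 h) and 0.13 against 0.0043 (24 h against 9 h).

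The largest log2 change of any member was that of g5086 from 6 h to 9 h, 3.49 with a 95% interval of 0.26 to 6.72 (limma adjusted p = 0.197). From 4 h to 24 h it was 3.16 with an interval of -0.07 to 6.39 (limma adjusted p = 0.164). The change of g4149 from 4 h to 6 h was 2.42 with an interval of 0.05 to 4.80 (limma adjusted p = 0.553). For g5084 the change from 6 h to 9 h was 1.79 with an interval of -1.06 to 4.64. These are changes on the log2(value + 1) scale, which understates those of low genes.

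None of the 45 changes passed the test after adjustment. Without adjustment, 43 had a 95% interval that included 0, and the intervals reached from 1.47 to 3.23 log2 units to each side. For g8665, the member with the narrowest intervals, the change from 4 h to 9 h was 0.97 with an interval of -0.50 to 2.43 (limma adjusted p = 0.366). Without 9 h replicate 1, in which it was at 0, the change of g8665 was 1.95 (limma adjusted p = 0.0388) and the gene was called, as were 3.62% of all transcripts in the same direction. Without 24 h replicate 3, in which it was at 0, the change of g5086 from 4 h to 24 h was 5.30 (limma adjusted p = 0.0164) and the gene was called, as were 2.12% of all transcripts in the same direction.

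Within equal numbers of PCR cycles the tests could use fewer libraries. With 6 h replicates 1 and 2 only, 0 of 9 members and 0.00782% of all transcripts were called higher than at 4 h (15 cycles on both sides, limma, with 0 members and 90 transcripts at an unadjusted p under 0.05). With 6 h replicate 3 only, 0 of 9 members and 0% of all transcripts were called higher at 9 h (21 cycles on both sides, limma, with 0 members and 284 transcripts at an unadjusted p under 0.05), with the spread of that single library taken from the remaining groups. The log2 change of g582 from 4 h to 6 h was 0.09 with all libraries and -0.42 within 15 cycles, and that of g4149 was 2.42 and 1.47, while that of g8665 was 0.98 and 0.91. From 6 h to 9 h the log2 change of g582 was 0.39 with all libraries and -0.62 within 21 cycles, and that of g4149 was -0.71 and -2.61. The genes g5086 and g5084, at 0 in every 6 h library, had the same change in both fits, 3.49 and 1.79. The 9 h and 4 h libraries share no number of cycles, and neither do those of 24 h and any other time, so those differences cannot be told apart from a difference in cycles.

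**Figure D3:**
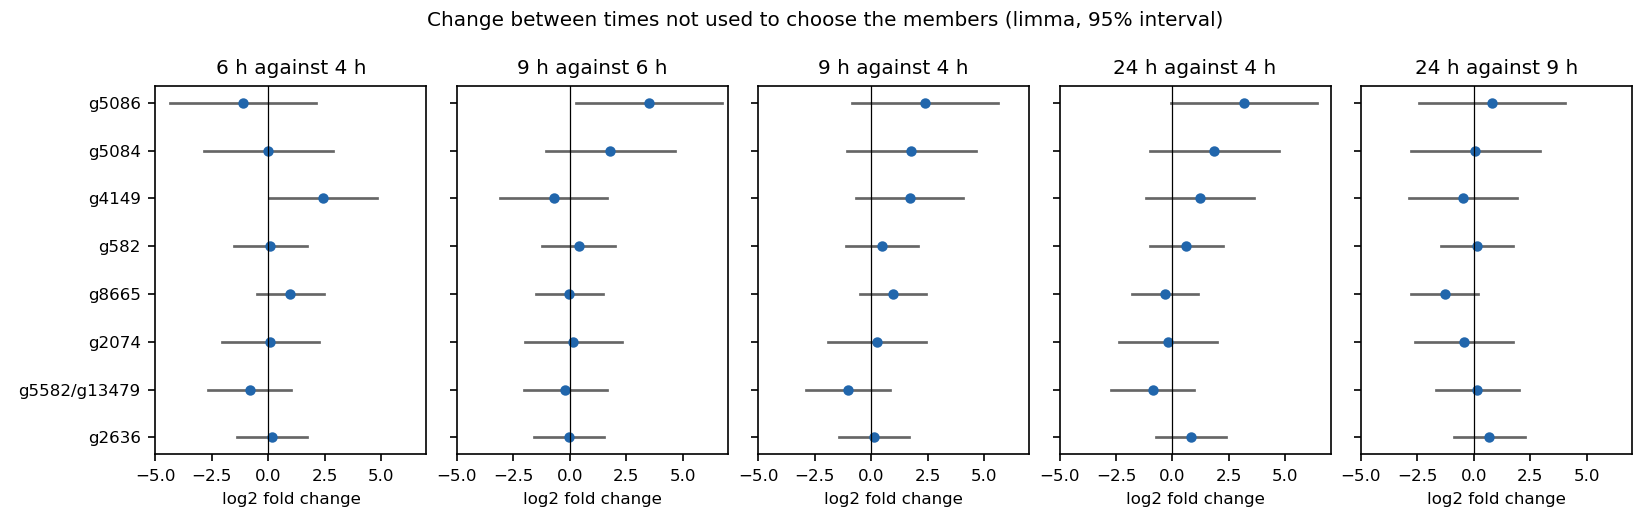
Log2 fold change of each member on log2(value + 1) in 5 comparisons among the times that did not choose the members, with limma's 95% intervals (lines). All intervals cross 0 except those of g4149 from 4 h to 6 h and g5086 from 6 h to 9 h, and no member was called.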

How the data were processed

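By the study's methods, single-end reads of 75 bp were mapped with bowtie2 to the coding sequences, quantified with RSEM and scaled with TMM factors. The deposited signal values are TMM-normalized TPM per transcript, made by the authors, for 27 libraries (9 groups of 3), and are not counts. The count table that the study tested with DESeq2 is a supplement of the paper and was not used here. The members and gene lists were chosen with earlier results of these data known.

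Members, times of coming on and levels at 24 h were computed with Python 3.11.15 and pandas 2.3.3. All members are named. Changes were fitted in R 4.3.3 with limma 3.58.1 (trend, 9 group means, pseudocount 1, transcripts that reached 1 in 3 or more libraries). The worth of 1 read was estimated from whole-number steps in 988 of 3317 transcripts above 0 in 5 to 22 libraries. Of equal solutions the one with the fewest reads was taken. Whole steps were found for g582, g8665, g2074, g5582 and g13479. Both procedures were tested on simulated data. Alternatives were no TMM factor, another pseudocount, a replicate block, fits of 2 groups, no filter, no fold limit, other limits for being on or held, summed transcript rows and each library left out. No sequences were used.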

Additional observations from a re-analysis of the deposited data

How the results depend on the processing

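Of 112 alternative values, 106 stayed within 1.5 times of the value reported or at 0. Of these 106, 72 were tests with 0 members called where the value reported was 0 as well. With intervals as wide as those above, this is no sign of stability. The limit of 1.5 times also took in counts of 6 genes that met the rule in place of 9. In the tests of members, 72 of 74 alternatives called no member, the replicate block among them (0 of 9 in each of the 5 comparisons). The other 2 left out 1 library (1 member called without 9 h replicate 1 for 9 h against 4 h, beside 3.62% of all transcripts, and 1 without 24 h replicate 3 for 24 h against 4 h, beside 2.12%), so the range over left-out libraries was 0 to 1 in these comparisons and 0 to 0 in the rest. Same-numbered replicates of different groups did not deviate together (median correlation -0.000146 over 108 pairs, 2 of them over 0.1), so the numbers do not pair the samples. The number of genes that met the rule was 6 to 21 with 1 library left out. It was 11 to 21 without 1 control library, of which 14 without replicate 1 and 21 without replicate 2, and 6 to 9 without 1 library of 12 h to 21 h, chosen after seeing the data, with 75% of the remaining libraries required to exceed the controls. A member with 9 of 12 libraries above the controls (g5084 and g2074) must fail this limit without any 1 of the 9. Without both 18 h replicates 2 and 3, also added later, 8 genes met the rule, all of them members. The number was 10 with no TMM factor, all 9 members included, and 9 with transcript rows summed over all genes. The number on at 4 h was 6 with no TMM factor (with 2 on at 9 h) and 4 when the group mean had to be at least 2. It was 3 when all 3 libraries had to exceed the controls and 3 to 5 with 1 library left out (3 without 4 h replicate 2). The number on at 9 h, 3 with all libraries, was 2, 1 and 0 without 9 h replicate 1, 2 and 3. The number held at 24 h was 6 to 7 without 1 library of 24 h. The cause of these moves was not tested beyond the libraries' own values. Depth limits the 24 h levels, where 1 read was worth 8.76 to 15.4 times as much as in the library with the lowest worth.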

Other observations

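Few low transcripts were above 0 in 9 h replicate 1 and 18 h replicate 2, and in the former those above 0 had many reads. Over the 988 low transcripts with whole-number steps, 79 were above 0 in 9 h replicate 1, with a median of 41 reads each, and 147 in 18 h replicate 2, with a median of 13. In the other 25 libraries 197 to 892 of them were above 0, with a median of 2 to 13 reads. The members were likewise either at 0 or well above it. In 9 h replicate 1 the values above 0 were those of g5086 (29.1) and of the pair g5582 and g13479 (5.88), and the rest were at 0. In 18 h replicate 2 g4149 (69.1), g8665 (15.8) and g5084 (61.3) had the highest value of their 27 libraries. The genes g582, g5086, g2074 and g2636 were at 0 there. The pair g5582 and g13479 was at 4.20, near its median of 3.34 over 12 h to 21 h. The part of these libraries in the members' levels was measured only by leaving them out.

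The 3 members listed at 0 in every control (g5086, g5084 and g4149) had means of 43.5, 19.2 and 19.2 at 12 h to 21 h. The 6 with values above 0 in the controls had means of 3.19 to 5.47. The rule used both of these levels, so this is a description with no test. No whole-number steps were found for g5086, g5084, g4149 and g2636, so no reads are given for them here. The gene g5082, with a mean of 0 in the controls and the 6 h libraries, had group means of 0.825 for 4 h, 4.61 for 9 h and 5.24 for 24 h. Whether g5082, g5084 and g5086 share sequence or position was not analysed here.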
